A study of Homo sapiens with 16 samples.

Results

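Gene expression was compared between MDA-MB-231 cells given YES1i (CH6953755) and the same cells given DMSO, an experiment of 8 libraries among the 16 of the series. The other 8 libraries are of the line SUM159PT and did not enter the fit. MDA-MB-231 is an established human line of triple-negative breast cancer, a form without oestrogen and progesterone receptors or HER2 amplification. Poly(A) RNA was sequenced.

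The control group was MDA-MB-231, labelled wild type in genotype, with the solvent DMSO for 48 h (n = 4 libraries). The treated group was the same line with 8 uM YES1i for 48 h (n = 4 libraries), 1 dose and 1 time of a single compound. Both were treated the day after plating in RPMI medium, and the series text speaks of transfection where the protocol speaks of treatment. The series text calls the 4 libraries of a group technical replicates, so every p-value below measures only the spread between these libraries. Differences between culture dishes and an effect of the drug cannot be told apart if the libraries of a group share a dish, which the labels do not settle. All 58735 genes of the deposited count table were considered, and 15577 of them, 12874 protein-coding, had enough counts in these 8 libraries to be tested.

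YES1 is a tyrosine kinase of the Src family. These kinases sit on the inner face of the cell membrane, are held inactive by phosphorylation through CSK, and pass signals from integrins, growth factor receptors and cell junctions to the cytoskeleton and to transcription. Such signals act in part through the co-activators YAP and TAZ and through growth pathways that set how many ribosomes, nucleotides and proteins a cell makes.

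Total counts per library ran from 16104898 to 21078169. Levels are given in CPM, the counts of a gene relative to all counts of its library after scaling between libraries. A count of 0 allows at most 0.186 CPM in the shallowest library, which covers counting error only. Treated and control libraries were separated by the first principal component (78.6% of the variance of log2 levels), and the second took 5.66%. On the second, YES1i replicate 1 stood at 16.4 and replicate 2 at 4.93, while YES1i replicates 3 and 4 stood at -11.2 and -11.1. The share of counts in lincRNA was 0.577 and 0.484% in YES1i replicates 1 and 2 against 0.417 and 0.400% in replicates 3 and 4. Mitochondrial rRNA took 0.644 ± 0.0283% of the DMSO counts and 1.33 ± 0.0502% of the YES1i counts (two-sided exact permutation p = 0.0286, n = 4, the smallest that 70 regroupings allow; 0.0667 adjusted over 7 shares). The 20 genes with most counts took 7.94 ± 0.234% with DMSO and 9.58 ± 0.0849% with YES1i, and protein-coding genes 97.8 ± 0.0410% and 97.0 ± 0.118%. Both shares had the same permutation p and adjusted p as the rRNA share, and the remaining ones had larger values. The part of these shares in the results below was not tested, and that of the lincRNA split only through the counts with YES1i replicates 3 and 4 alone. Of 13 markers of the line's type 10 could be tested (2 rose and 6 fell), and ESR1, PGR and FOXA1 were too low. All 13 summed to 3261 to 3358 CPM with DMSO and 2837 to 2887 CPM with YES1i. The list mixes VIM, CD44 and EGFR, expected in such a line, with others expected absent or low. Neither its sum nor its counts therefore measure the line's identity. KRT18, expected low, had a mean of 393 CPM with DMSO and 258 CPM with YES1i. Of 13 markers of endothelium and fibroblasts 6 could be tested (4 rose and 2 fell, or 1 without DMSO replicate 3, DMSO replicate 4, YES1i replicate 2 or YES1i replicate 4), and all 13 summed to 45.0 to 49.2 CPM with DMSO and 40.2 to 46.7 CPM with YES1i, with DCN at 0 counts in all 8 libraries. Of 11 leukocyte markers 2 could be tested (1 rose, or 2 without any 1 library but YES1i replicate 3), and all 11 summed to 10.7 to 12.52 CPM with DMSO and 13.3 to 15.3 CPM with YES1i, with MS4A1 at 0.

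With YES1i, 4568 of the tested genes (29.3%) rose and 4780 (30.7%) fell, by edgeR's quasi-likelihood test with a Benjamini-Hochberg adjusted p under 0.05. Those shares, 60.0% of all genes together, are the background beside which each list below is given. They differed with level: of the 2575 protein-coding genes with the highest mean CPM, 32.7% rose and 46.4% fell. Of the 2575 with the lowest, 28.1% rose and 15.5% fell. For lists of abundant genes the share lower is therefore to be read against more than 30.7%. A change of at least 2-fold was rarer, with 900 genes (5.78%) higher and 655 (4.20%) lower. The median log2 fold change of all tested genes was -0.00, and its quartiles were -0.30 and 0.33. For 8304 genes (53.3%) the 4 values of 1 group did not overlap those of the other. With YES1i replicates 3 and 4 alone against DMSO, 4535 genes rose and 4391 fell. In these bulk libraries, fewer cells of a state and less RNA per cell cannot be told apart. All folds are log2 fold changes of YES1i over DMSO unless a level in CPM is given, and "rose" or "fell" is used only of genes past this test. The genes were grouped in 56 lists other than cell division, sterols and lysosomes, which are not described here. Members named first in a list are those with the largest called rise and fall at a mean of 5 CPM or more whose groups did not overlap, and further members were chosen after their values were seen.

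**Figure D1:**
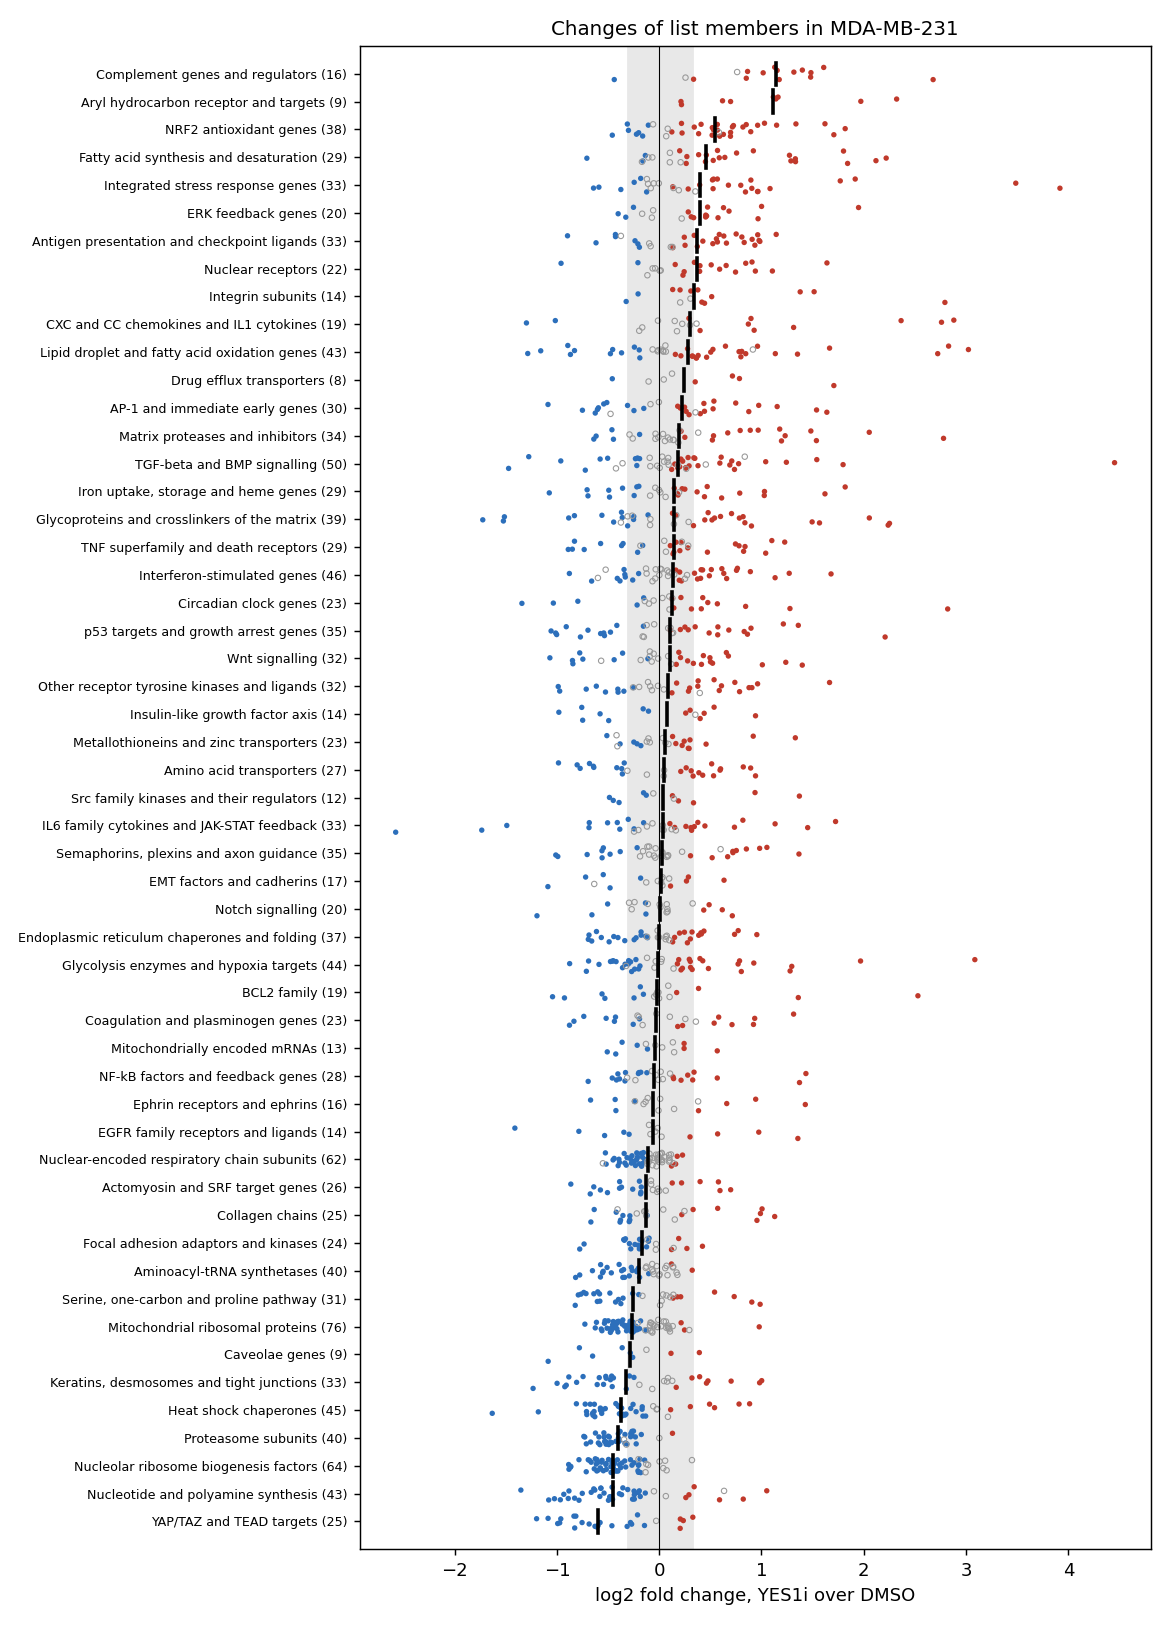
Log2 fold change (x axis) of each tested member of 53 gene lists (y axis, number of tested members in brackets), ordered by the list median, which is the black bar. Filled points were called by edgeR at an adjusted p under 0.05, open ones were not, and the grey band runs between the quartiles of all 15577 tested genes. Complement, aryl hydrocarbon receptor and NRF2 genes lie highest, and YAP/TAZ targets, nucleotide synthesis and nucleolar factors lowest.

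The transcript of the targeted kinase was not called changed. YES1 (chromosome 18, 721588 to 812546 on hg38, minus strand) had 97.5, 93.3, 102 and 100.03 CPM with DMSO and 89.9, 98.0, 90.3 and 99.4 CPM with YES1i, and the groups overlapped. Its log2 fold change was -0.06 (SE 0.05; 0.297 as adjusted p in edgeR). Of the Src family kinases and their regulators, 5 of 12 tested members rose and 5 fell (median 0.04 on the log2 scale). PTPN6, the phosphatase SHP-1 that dampens receptor signalling, had 4.54, 5.53, 3.86 and 4.93 CPM with DMSO and 8.78, 8.12, 9.98 and 9.04 CPM with YES1i, with no overlap (log2 fold change 0.94, SE 0.13). PAG1, the membrane adaptor that anchors CSK, had 39.9, 39.2, 38.5 and 41.1 CPM with DMSO and 32.7, 28.5, 27.5 and 24.9 CPM with YES1i, lower in every YES1i library (-0.49, SE 0.07). CSK itself had a log2 fold change of -0.39, and the phosphatases PTPN1 and PTPRE, which can remove the inhibitory phosphate, had -0.45 and 0.34. Among kinases SRC rose by 0.19 and FRK by 1.37 from a low level, while LYN was at 0.14 (edgeR adjusted p = 0.07). FYN had -0.15, PTPN11 -0.13 and PTPRA 0.13, and each of these 3 calls was lost under some alternatives. FYN lost its call without DMSO replicate 1, YES1i replicate 1 or YES1i replicate 2, without the low-count filter, and with YES1i replicates 3 and 4 only, where its log2 fold change was -0.08 (edgeR adjusted p = 0.287). PTPRA lost its call without DMSO replicate 1, DMSO replicate 4 or YES1i replicate 3. PTPN11 lost it with upper quartile scaling and in the fit of all 16 libraries, 2 settings under which FYN lost it too and LYN was called higher. LYN was also called higher without YES1i replicate 2 and with YES1i replicates 3 and 4 only. With upper quartile scaling and in the fit of all 16 libraries 3 members of the list fell.

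Most genes on the lists for making ribosomes, nucleotides and proteins were lower, by modest amounts. Of 64 nucleolar ribosome biogenesis factors, 55 fell and 0 rose (median -0.45), against 30.7% of all genes lower. EBNA1BP2, which acts in processing of large-subunit rRNA (chromosome 1, 43164175 to 43270936, minus strand), had 136, 145, 139 and 146 CPM with DMSO and 75.5, 71.6, 79.3 and 79.5 CPM with YES1i. Every YES1i library was below every DMSO library, with a log2 fold change of -0.89 (SE 0.05; 4.18e-16 as adjusted p in edgeR). The rRNA methyltransferase fibrillarin, FBL, fell from 203 ± 6.22 to 111 ± 6.22 CPM (mean ± SD, n = 4) and the large-subunit assembly factor BOP1 from 156 ± 11.6 to 85.4 ± 6.92 CPM. The abundant nucleolar proteins NCL and NPM1 had -0.60 and -0.45, and the snoRNP core protein NOP56 -0.61. The summed level of the list stood from 68.7 to 74.1% of the DMSO mean in the 4 YES1i libraries.

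Among enzymes of nucleotide and polyamine synthesis 34 of 43 fell and 6 rose (median -0.46). CTPS1, which makes CTP from UTP, showed the largest fall, with 99.2, 101, 98.0 and 92.7 CPM with DMSO and 39.4, 34.4, 38.9 and 40.0 CPM with YES1i. The groups lay far apart (log2 fold change -1.35, SE 0.05). In purine synthesis PFAS had -1.08, PAICS -0.83 and the salvage enzyme HPRT1 -0.93. CAD, which carries the first steps of pyrimidine synthesis, fell from 218 ± 8.90 to 118 ± 6.77 CPM. Entry into the polyamine pathway and breakdown moved in opposite directions. ODC1, the rate-limiting decarboxylase, fell from 135 ± 2.87 to 68.8 ± 5.24 CPM, and spermidine synthase SRM had -0.89. SAT1, which acetylates polyamines for breakdown and export, had 51.7, 45.8, 45.6 and 46.8 CPM with DMSO and 98.5, 99.3, 97.4 and 98.5 CPM with YES1i and rose (1.05, SE 0.05) without overlap.

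Of 40 proteasome subunits and assembly factors 36 fell and 1 rose (median -0.40). PSMG1, a chaperone of proteasome assembly, had 52.95, 53.8, 49.1 and 48.4 CPM with DMSO and 29.3, 32.0, 30.6 and 30.6 CPM with YES1i, lower in all 4 YES1i libraries (-0.74, SE 0.06). The regulatory particle subunits PSMC3 and PSMD2 had -0.73 and -0.67, and the catalytic subunit PSMB5 -0.33. The single member that rose was PSME1, a subunit of the interferon-linked activator cap, at 0.13. Of 45 heat shock chaperones 35 fell and 6 rose (median -0.37). HSPA4L, an HSP110-type exchange factor, had 69.5, 62.6, 63.7 and 62.8 CPM with DMSO and 30.3, 31.3, 24.8 and 27.97 CPM with YES1i (-1.18, SE 0.06). Subunits of the cytosolic chaperonin, which folds actin and tubulin, fell too: CCT5 from 403 ± 6.37 to 244 ± 13.7 CPM, CCT2 from 225 ± 6.24 to 151 ± 3.95 CPM and TCP1 with a log2 fold change of -0.71. HSP90AB1, the constitutive HSP90, had -0.37. The largest rise was BAG1, a nucleotide exchange factor of HSP70, with 94.3, 98.1, 90.6 and 106 CPM with DMSO and 167, 168, 195 and 186 CPM with YES1i, higher in every YES1i library (0.88, SE 0.05).

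The promoters of heat shock genes are shown because most members of the list fell together while a few with the same element did not. Heat shock factors bind arrays of inverted GAA units, searched here as GAANNTTC, which reads the same on both strands. In the 250 bases before the RefSeq start, 11 of 40 members with an entry (27.5%) held it, against 5.85% of 27305 promoters. Windows are from RefSeq on GRCh38.p14, written 5′ to 3′ on the gene's strand with each match in capitals: HSPA8 at chr11:123062137-123062386 (minus strand), DNAJA1 at chr9:33025023-33025272 (plus), TCP1 at chr6:159789603-159789852 (minus) and HSPB1 at chr7:76302423-76302672 (plus).
HSPA8: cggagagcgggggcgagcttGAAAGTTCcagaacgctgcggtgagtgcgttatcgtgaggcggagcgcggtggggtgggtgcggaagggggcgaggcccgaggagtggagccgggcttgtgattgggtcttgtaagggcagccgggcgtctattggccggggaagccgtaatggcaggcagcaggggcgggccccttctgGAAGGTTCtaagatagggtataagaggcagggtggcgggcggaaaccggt
DNAJA1: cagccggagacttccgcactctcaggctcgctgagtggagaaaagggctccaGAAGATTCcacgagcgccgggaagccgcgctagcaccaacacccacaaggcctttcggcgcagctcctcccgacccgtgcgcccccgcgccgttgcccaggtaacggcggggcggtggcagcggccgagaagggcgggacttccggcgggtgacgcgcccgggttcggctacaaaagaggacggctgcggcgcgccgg
TCP1: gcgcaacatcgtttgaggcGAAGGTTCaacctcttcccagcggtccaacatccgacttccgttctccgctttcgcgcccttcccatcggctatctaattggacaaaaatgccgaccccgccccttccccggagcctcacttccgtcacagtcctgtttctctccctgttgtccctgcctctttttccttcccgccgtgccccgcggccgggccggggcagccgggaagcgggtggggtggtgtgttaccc
HSPB1: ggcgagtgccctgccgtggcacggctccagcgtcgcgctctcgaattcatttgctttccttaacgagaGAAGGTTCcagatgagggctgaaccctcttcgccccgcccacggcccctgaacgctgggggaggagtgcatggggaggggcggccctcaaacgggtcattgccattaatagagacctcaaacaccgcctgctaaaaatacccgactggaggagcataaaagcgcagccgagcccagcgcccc
Of these, HSPA8, the constitutive HSP70, fell from 1868 ± 25.8 to 1442 ± 66.4 CPM, and its co-chaperone DNAJA1 had -0.37. HSPB1, the small heat shock protein HSP27, rose slightly (0.11, SE 0.04). The inducible HSP70 genes HSPA1A and HSPA1B, near-identical copies whose reads cannot be assigned with certainty, also hold the element and had -0.03 (edgeR adjusted p = 0.748) and 0.30. A match describes these letters only.

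Genes of mitochondrial translation and of tRNA charging were also lower more often than higher. Of 76 mitochondrial ribosomal proteins 49 fell and 3 rose (median -0.26). MRPL12 had 32.8, 35.8, 32.8 and 37.3 CPM with DMSO and 22.4, 21.0, 21.1 and 19.4 CPM with YES1i and lay lower throughout (-0.73, SE 0.07). The 3 that rose were MRPS24 (0.98), MRPL41 (0.21) and MRPL34 (0.25), the last with exons that overlap ABHD8 on the other strand. Without YES1i replicate 1, 7 rose, and with upper quartile scaling 8. Among nuclear-encoded respiratory chain subunits 4 of 62 tested members rose and 28 fell (median -0.11 on the log2 scale), so their share lower was nearer to that of all genes. CYC1, cytochrome c1, fell from 214 ± 8.23 to 149 ± 11.6 CPM, the electron carrier CYCS had -0.52, and SDHC of complex II rose by 0.23. The number that rose was 7 without YES1i replicate 1, 2 without DMSO replicate 1, and 8 with upper quartile scaling or with YES1i replicates 3 and 4 only. In the fit of all 16 libraries 18 fell in place of 28. The mRNAs encoded in mitochondria moved apart from each other: MT-CO1 rose by 0.57 and MT-ND3 had -0.51, within a list where 3 of 13 tested members rose and 5 fell (median -0.04 on the log2 scale). With YES1i replicates 3 and 4 only 1 of them fell, and in the fit of all 16 libraries 1 rose and 1 fell.

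Of 40 aminoacyl-tRNA synthetases and partners 22 fell and 2 rose (median -0.20). FARSB, the beta subunit of the phenylalanine enzyme, had 54.7, 59.1, 59.0 and 55.6 CPM with DMSO and 28.5, 33.2, 31.1 and 36.6 CPM with YES1i (-0.82, SE 0.06), with no overlap. VARS, for valine, had -0.78, whereas CARS, for cysteine, rose (0.32, SE 0.05). The count of synthetases that rose was 7 with upper quartile scaling, 5 in the fit of all 16 libraries and with YES1i replicates 3 and 4 only, 4 without YES1i replicate 1, and 1 without DMSO replicate 1, DMSO replicate 3 or YES1i replicate 4. In the serine, one-carbon and proline pathway 7 of 31 tested members rose and 17 fell (median -0.26 on the log2 scale). AHCY, which clears S-adenosylhomocysteine, fell from 238 ± 10.2 to 137 ± 10.3 CPM, and the mitochondrial folate enzyme MTHFD2 from 38.8 ± 1.86 to 22.8 ± 2.61 CPM. PSAT1 and SHMT2, which make serine and glycine, had -0.58 and -0.35.

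Amino acid transporters were split, as 13 of 27 tested members rose and 10 fell (median 0.05 on the log2 scale). SLC7A1 and SLC7A2, importers of arginine and lysine, had -0.77 and -0.80, and SLC7A5, the large neutral importer, fell from 669 ± 30.3 to 428 ± 14.6 CPM. SLC43A1, a facilitative leucine carrier, had 11.7, 12.9, 13.2 and 12.51 CPM with DMSO and 25.3, 21.1, 25.05 and 24.9 CPM with YES1i, above DMSO in all 4 (0.94, SE 0.08). Its relative SLC43A2 had 0.82, and the glutamine transporter SLC38A2 0.43. The most abundant translation factor transcript did not follow the fall: EEF1A1 had 9160.0, 8970.1, 9076 and 9065 CPM with DMSO and 11658, 12677, 12600.5 and 13334 CPM with YES1i, the largest gain in CPM of any protein-coding gene (0.47, SE 0.04). EEF1A1 has many processed pseudogenes, so its count is uncertain.

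**Figure D2:**
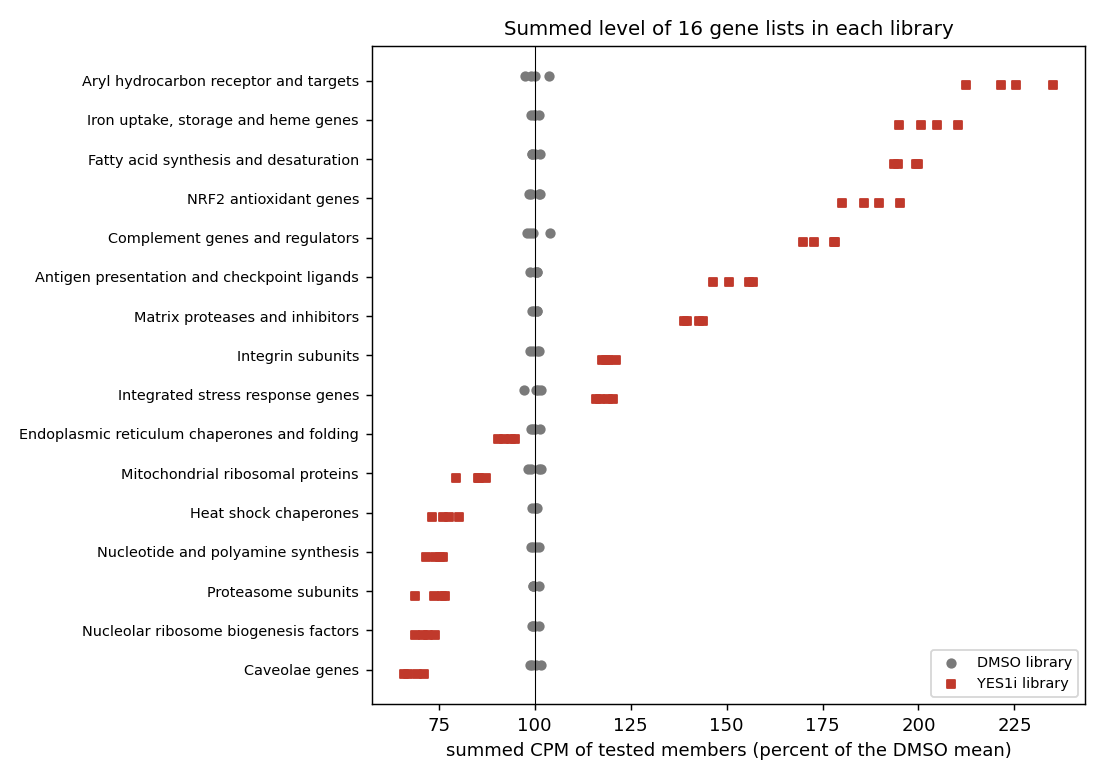
Summed CPM of the tested members of 16 lists in each of the 8 libraries, as a percent of the mean of the 4 DMSO libraries (x axis). Grey circles are DMSO and red squares YES1i; the nucleolar list falls to 68.7 to 74.1% and the aryl hydrocarbon receptor list rises to 212 to 235%, and abundant members weigh most in a sum.

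In glycolysis and hypoxia 19 of 44 tested members rose and 18 fell (median -0.01 on the log2 scale). PDK4, the kinase that blocks entry of pyruvate into the citric acid cycle (chromosome 7, 95583499 to 95596491), had 3.38, 2.57, 3.36 and 3.70 CPM with DMSO and 26.9, 29.2, 27.97 and 27.3 CPM with YES1i. The YES1i values were all several times the DMSO ones, with a log2 fold change of 3.09 (SE 0.10; 2.28e-20 as adjusted p in edgeR). SLC2A1, a widely expressed glucose importer, had 634, 674, 641 and 661 CPM with DMSO and 352, 355, 359 and 356 CPM with YES1i and fell (-0.88, SE 0.04). LDHA, which makes lactate, fell from 2396 ± 65.0 to 1484 ± 65.0 CPM and the mutase PGAM1 from 728 ± 9.77 to 444 ± 13.4 CPM. Another glucose importer, SLC2A3, rose from 43.3 ± 1.90 to 105 ± 3.81 CPM, and PDK2 had 0.80. The element ACGTG, the core that hypoxia-inducible factors bind, was found in 15 of 40 promoters of the list (37.5%) and in 18.7% of all promoters, on either strand, and any CACGTG site also holds it.

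Fatty acid synthesis genes rose more widely: 20 of 29 tested members rose and 3 fell (median 0.46 on the log2 scale), and 8 rose at least 2-fold. ACSS2, which makes acetyl-CoA from acetate, had 58.2, 64.7, 60.7 and 63.3 CPM with DMSO and 290.3, 285, 284 and 290.2 CPM with YES1i (2.22, SE 0.04), with no overlap. The desaturase SCD was among the largest gains in CPM, with 582, 572, 564 and 619 CPM with DMSO and 2061, 2121, 1961 and 2008 CPM with YES1i (1.80, SE 0.04). Fatty acid synthase FASN rose from 567 ± 44.1 to 1427 ± 94.0 CPM, ACSL1, which activates fatty acids, from 47.5 ± 1.81 to 170.3 ± 6.53 CPM, and the desaturases FADS1 and FADS2 by 0.92 and 1.27. ELOVL7, an elongase, fell from 10.4 ± 0.749 to 6.43 ± 1.37 CPM. Genes of lipid droplets and fatty acid oxidation rose in part, as 23 of 43 tested members rose and 11 fell (median 0.28 on the log2 scale).

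PPARGC1A, the co-activator PGC-1alpha that drives mitochondrial and fasting programmes, had 3.79, 2.00, 2.62 and 2.65 CPM with DMSO and 24.1, 21.2, 21.5 and 23.8 CPM with YES1i (3.02, SE 0.12). ANGPTL4, a secreted inhibitor of lipoprotein lipase, had 4.49, 3.99, 5.29 and 5.26 CPM with DMSO and 36.1, 31.2, 34.9 and 33.8 CPM with YES1i (2.83, SE 0.09). Neither gene had any overlap between groups. The droplet coat gene PLIN2 rose from 51.5 ± 1.18 to 163 ± 7.12 CPM, the carnitine transferase CPT1A from 79.9 ± 2.37 to 156 ± 4.15 CPM, the lipase PNPLA2 by 0.46 and the receptor PPARA by 0.85. G0S2, an inhibitor of that lipase, had 106, 118, 109.5 and 114 CPM with DMSO and 41.8, 39.6, 52.8 and 48.3 CPM with YES1i and fell (-1.29, SE 0.07). UCP2, a carrier of the inner mitochondrial membrane, had -1.16.

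PIK3IP1, an inhibitor of PI3K (chromosome 22, 31281593 to 31292534), was among the 12 largest rises by the naming rule, with 2.78, 1.83, 2.22 and 2.42 CPM with DMSO and 20.7, 22.7, 23.0 and 20.2 CPM with YES1i (3.22, SE 0.12). FBXO32, the ubiquitin ligase atrogin-1, had 19.7, 19.0, 19.2 and 18.7 CPM with DMSO and 85.6, 89.7, 87.1 and 91.5 CPM with YES1i (2.21, SE 0.05). Every YES1i library exceeded every DMSO library in both. The kelch protein gene KLHL24 rose from 24.2 ± 1.27 to 91.4 ± 7.48 CPM and CCNG2, an atypical cyclin of resting cells, from 49.5 ± 1.96 to 92.3 ± 4.03 CPM. The receptor ERBB3, which signals to PI3K with ERBB2, is described with its family below.

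Stress responses were uneven. Of the integrated stress response list, 19 of 33 tested members rose and 6 fell (median 0.40 on the log2 scale), and 5 rose at least 2-fold. NUPR1, a small stress-induced chromatin protein (chromosome 16, 28532708 to 28539174), had 1.67, 1.03, 0.840 and 0.995 CPM with DMSO and 14.4, 17.9, 17.8 and 18.6 CPM with YES1i (3.92, SE 0.16; 1.63e-18 as adjusted p in edgeR). GDF15, a secreted stress cytokine (chromosome 19, 18374731 to 18389176), had 5.15, 5.99, 5.34 and 6.21 CPM with DMSO and 66.6, 58.9, 64.2 and 64.4 CPM with YES1i (3.49, SE 0.08). In both the groups were far apart. The central factor ATF4 rose by 0.52 and its partners CEBPB by 0.90 and DDIT3 by 0.96, the last with exons shared with MARS. PPP1R15A, which restores translation, rose from 73.8 ± 2.25 to 144 ± 7.46 CPM. EIF4EBP1, a brake on cap-dependent translation, had 57.6, 62.3, 57.9 and 58.4 CPM with DMSO and 38.0, 36.5, 38.6 and 38.0 CPM with YES1i and fell (-0.64, SE 0.05). ASNS, asparagine synthetase and a usual target of ATF4, was near 0.14 (edgeR adjusted p = 0.715) at a mean of 1.05 and 1.15 CPM, where 44.6% of its exonic length is shared with another gene.

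The composite site of ATF4 with C/EBP, searched as TGATGNAA on both strands, was found in 4 of 28 promoters of this list (14.3%) and in 3.19% of all promoters. The windows are of CHAC1 at chr15:40953221-40953470 (plus), ATF3 at chr1:212565157-212565406 (plus) and ASNS at chr7:97872409-97872658 (minus). They are shown, with matches in capitals, because these 3 genes share the element.
CHAC1: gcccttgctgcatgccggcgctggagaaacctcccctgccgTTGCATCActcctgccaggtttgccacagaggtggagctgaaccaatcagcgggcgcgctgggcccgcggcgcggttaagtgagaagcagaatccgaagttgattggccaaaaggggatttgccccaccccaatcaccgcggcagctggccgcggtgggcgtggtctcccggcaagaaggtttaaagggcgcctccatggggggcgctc
ATF3: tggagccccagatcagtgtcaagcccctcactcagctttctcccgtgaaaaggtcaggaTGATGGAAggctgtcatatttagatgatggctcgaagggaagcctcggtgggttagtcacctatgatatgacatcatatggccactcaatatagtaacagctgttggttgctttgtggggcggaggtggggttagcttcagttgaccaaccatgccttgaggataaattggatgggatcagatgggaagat
ASNS: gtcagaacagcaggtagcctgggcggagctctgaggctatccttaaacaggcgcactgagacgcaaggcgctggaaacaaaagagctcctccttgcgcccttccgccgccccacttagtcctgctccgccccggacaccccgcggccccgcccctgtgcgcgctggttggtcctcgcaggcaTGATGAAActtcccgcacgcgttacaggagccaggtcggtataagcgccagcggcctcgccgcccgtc
CHAC1, which degrades glutathione, rose from 2.33 ± 0.246 to 4.17 ± 0.339 CPM (0.84, SE 0.17). The stress factor ATF3 rose from 7.36 ± 1.00 to 10.6 ± 1.16 CPM (0.53, SE 0.12), and ASNS was not called. The remaining member with a match was PPP1R15B, at -0.12.

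Among endoplasmic reticulum chaperones and folding genes 14 of 37 tested members rose and 15 fell (median -0.00 on the log2 scale), with 0 past 2-fold in either direction. The sensor ERN1 (IRE1) had 15.8, 14.8, 17.1 and 15.6 CPM with DMSO and 27.3, 31.9, 32.4 and 31.0 CPM with YES1i, all YES1i values above DMSO (0.95, SE 0.07). The degradation genes HERPUD1 and DNAJB9 had 0.44 and 0.74. Among chaperones of the lumen, HSPA5 (BiP) fell from 1051 ± 25.5 to 748 ± 25.8 CPM, HYOU1 from 313 ± 3.85 to 195 ± 5.98 CPM, PDIA4 from 372 ± 6.30 to 281 ± 13.2 CPM and the secreted MANF from 71.8 ± 0.873 to 46.8 ± 4.10 CPM. SDF2L1, a partner of BiP, had 16.6, 20.9, 20.1 and 19.1 CPM with DMSO and 11.96, 11.3, 12.6 and 11.4 CPM with YES1i (-0.69, SE 0.09).

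Genes of the antioxidant factor NRF2 rose in larger number than all genes, as 27 of 38 tested members rose and 7 fell (median 0.55 on the log2 scale) and 6 rose at least 2-fold. In the fit of all 16 libraries 4 of them fell. FTL, the light chain of the iron store ferritin (chromosome 19, 48965301 to 48966878), had 1323, 1392, 1341 and 1342 CPM with DMSO and 4552, 4731, 4766 and 4985 CPM with YES1i. No library of 1 group came near the other (1.82, SE 0.04; 1.57e-24 as adjusted p in edgeR). Its partner FTH1 rose from 338 ± 25.4 to 1038 ± 93.8 CPM; both have processed pseudogenes that may share reads. The microsomal detoxification genes MGST1 and EPHX1 rose by 1.34 and 1.15, catalase CAT by 0.89 and SOD2 by 0.96. HMOX1, which breaks down heme, rose from 10.5 ± 0.748 to 21.4 ± 1.31 CPM. The 2 subunits of glutamate-cysteine ligase diverged, with GCLC at 0.85 and GCLM at -0.30, while TXNRD1 had 0.52. KEAP1, which marks NRF2 for destruction, had -0.31. TGACNNNGC, the core of the element bound by NRF2 with MAF, was found on either strand in 5 of 27 of these promoters (18.5%) and in 11% of all.

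Among iron uptake, storage and heme genes 14 of 29 tested members rose and 9 fell (median 0.15 on the log2 scale). TFRC, the receptor that takes up transferrin iron, fell from 484 ± 13.6 to 299 ± 6.23 CPM. SLC40A1, the iron exporter ferroportin, had 20.7, 19.0, 19.2 and 18.4 CPM with DMSO and 9.72, 12.9, 11.1 and 13.8 CPM with YES1i and fell (-0.71, SE 0.09). HFE, a partner of the transferrin receptor, rose from 33.2 ± 1.67 to 67.6 ± 3.58 CPM and the ferric reductase CYBRD1 from 178 ± 5.03 to 308 ± 10.6 CPM. Metallothioneins and zinc transporters had no common direction, as 10 of 23 tested members rose and 5 fell (median 0.06 on the log2 scale), or 2 fell in the fit of all 16 libraries. MT1X, a metal-binding metallothionein, had 4.49, 4.96, 5.04 and 5.54 CPM with DMSO and 15.5, 15.6, 8.88 and 10.9 CPM with YES1i (1.33, SE 0.16), and the zinc importer SLC39A14 had -0.51. Of the drug efflux transporters 4 of 8 tested members rose and 1 fell (median 0.24 on the log2 scale). ABCC3 had 97.9, 102, 94.3 and 103 CPM with DMSO and 361, 305, 333 and 297 CPM with YES1i (1.71, SE 0.05). ABCC1, which exports glutathione conjugates, fell from 134 ± 5.69 to 97.5 ± 6.21 CPM.

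All 9 tested members of the aryl hydrocarbon receptor list rose (median 1.12), 5 of them at least 2-fold. This ligand-activated factor pairs with ARNT and turns on enzymes that oxidise foreign compounds. CYP1A1, the classic target (chromosome 15, 74719542 to 74725610, minus strand), had 3.53, 2.68, 2.77 and 2.94 CPM with DMSO and 13.4, 15.6, 14.8 and 15.9 CPM with YES1i (2.32, SE 0.12). CYP1B1, far more abundant in CPM, rose from 200.4 ± 8.20 to 786 ± 35.0 CPM. The receptor AHR had 0.62 (SE 0.11), with 157 and 153 CPM in YES1i replicates 1 and 2 but 114 and 124 CPM in replicates 3 and 4. Its DMSO libraries had 85.9 to 91.8 CPM. The 2 feedback repressors AHRR and TIPARP had 1.14 and 1.12. NQO1, shared with NRF2, rose by 0.70 and ALDH3A1, at low counts, by 1.16.

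The core element of AHR with ARNT, GCGTG on either strand, was found in 4 of 7 list promoters with an entry (57.1%) and in 31.9% of all 27305. The windows of CYP1A1 at chr15:74725529-74725778 (minus strand), AHRR at chr5:321464-321713 (plus) and TIPARP at chr3:156674340-156674589 (plus) are shown, with matches in capitals, because all 3 genes rose more than 2-fold.
CYP1A1: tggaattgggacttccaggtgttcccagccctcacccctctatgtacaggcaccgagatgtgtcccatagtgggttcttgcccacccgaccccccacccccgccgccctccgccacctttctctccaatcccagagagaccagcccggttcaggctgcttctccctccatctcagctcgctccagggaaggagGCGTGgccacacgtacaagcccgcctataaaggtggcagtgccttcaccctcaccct
AHRR: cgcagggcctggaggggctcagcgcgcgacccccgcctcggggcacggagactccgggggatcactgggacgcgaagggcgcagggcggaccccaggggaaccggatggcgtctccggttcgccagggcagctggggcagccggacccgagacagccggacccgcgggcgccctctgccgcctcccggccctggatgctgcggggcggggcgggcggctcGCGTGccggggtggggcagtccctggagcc
TIPARP: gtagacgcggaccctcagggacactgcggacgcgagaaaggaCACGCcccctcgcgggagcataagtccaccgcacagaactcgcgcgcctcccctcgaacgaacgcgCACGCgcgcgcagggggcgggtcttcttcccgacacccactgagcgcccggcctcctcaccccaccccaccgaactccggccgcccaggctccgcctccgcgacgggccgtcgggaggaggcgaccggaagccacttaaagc
In CYP1A1 the match starts 57 bases before the start site, in AHRR 30 bases before it, and in TIPARP 208 and 142 bases before it. The remaining member with a match was NFE2L2, which rose by less than 2-fold, and the members with an entry and no match rose too. So short a motif occurs often, and no binding was measured.

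Regulators of arrest and death moved in both directions. Among p53 targets and growth arrest genes 15 of 35 tested members rose and 12 fell (median 0.11 on the log2 scale). FBXO32, in this list as well, led the rises, and DDB2, a damage sensor of nucleotide excision repair, had 18.9, 19.0, 20.8 and 22.7 CPM with DMSO and 11.1, 9.85, 10.2 and 8.09 CPM with YES1i and fell (-1.06, SE 0.10). TP53INP1 rose from 16.9 ± 0.552 to 39.3 ± 2.29 CPM, while MDM2, the ligase of p53, had -0.48. In the BCL2 family 4 of 19 tested members rose and 7 fell (median -0.02 on the log2 scale). BMF, which promotes apoptosis by binding BCL2 proteins (chromosome 15, 40087890 to 40108892, minus strand), had 8.53, 6.33, 5.98 and 6.68 CPM with DMSO and 41.4, 41.0, 39.8 and 37.1 CPM with YES1i (2.53, SE 0.09). BBC3 (PUMA), another activator of apoptosis, rose from 8.17 ± 1.58 to 21.0 ± 1.40 CPM. BCL2, which blocks apoptosis, had 12.4, 12.4, 12.3 and 11.5 CPM with DMSO and 5.54, 6.88, 5.52 and 5.72 CPM with YES1i and fell (-1.04, SE 0.11), and BCL2L1 fell from 411 ± 11.2 to 279 ± 13.2 CPM. MCL1 had -0.00 (edgeR adjusted p = 0.976), and BCL2L11 (BIM) had 0.17. The call of BCL2L11 was lost in the edgeR fit of all 16 libraries (adjusted p = 0.0572), without DMSO replicate 3 (0.0767) and without DMSO replicate 4 (0.0994).

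**Figure D3:**
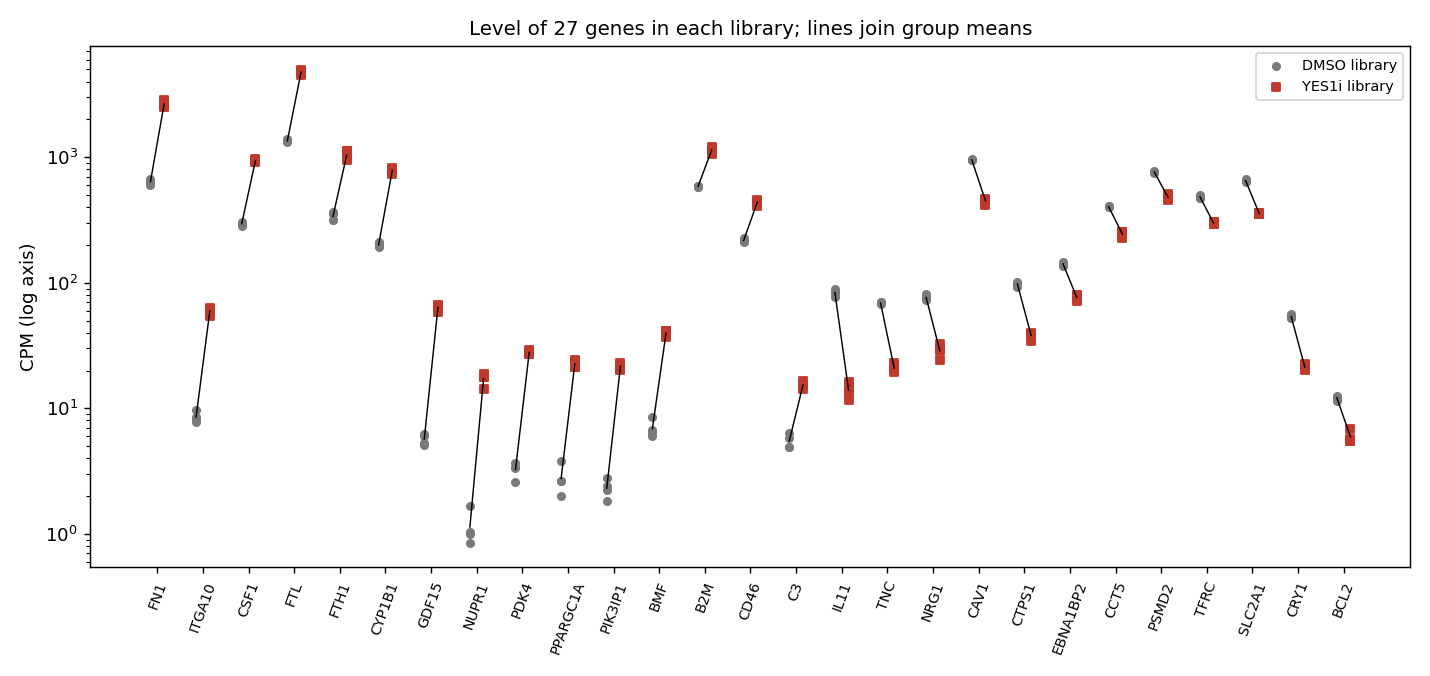
CPM on a log axis (y axis) of 27 genes (x axis) in each of the 8 libraries, with grey circles for DMSO, red squares for YES1i and a line between group means. The genes from FN1 to C3 are higher in all 4 YES1i libraries than in any DMSO library, and those from IL11 to BCL2 are lower.

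Immune genes were highest in the complement cascade. Of 16 tested complement genes and regulators 13 rose and 1 fell (median 1.14), and 10 rose at least 2-fold, against 5.78% of all genes. C3, the central component (chromosome 19, 6677704 to 6730562, minus strand), had 4.90, 6.33, 4.89 and 5.83 CPM with DMSO and 15.4, 14.4, 14.9 and 16.5 CPM with YES1i (1.48, SE 0.11). CFB, which forms the alternative convertase, rose from 3.92 ± 0.667 to 9.81 ± 0.999 CPM and C2 from 4.57 ± 0.341 to 12.8 ± 1.16 CPM. C4B and C4A had 2.68 and 1.61, but they are near-identical copies and their split is uncertain. The initiating protease C1R had 0.85, with exons that overlap C1RL.

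Inhibitors that protect the cell surface were the abundant members of the list. CD46, a cofactor for cleavage of C3b and C4b, had 225, 212, 216 and 215 CPM with DMSO and 443, 458, 412 and 444 CPM with YES1i (1.02, SE 0.04). The decay accelerator CD55 rose from 158 ± 5.33 to 287 ± 13.8 CPM and CD59, which blocks the membrane attack complex, by 0.34. CLU, a chaperone and fluid-phase inhibitor, rose from 106 ± 2.22 to 238 ± 4.83 CPM. C5 alone fell (-0.44, SE 0.10). Per kb of gene length CD46 went from 24.9 to 50.4 CPM and C3 from 0.659 to 1.84 CPM, so CD46 stood above C3 in both groups.

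In antigen presentation and checkpoint ligands 21 of 33 tested members rose and 7 fell (median 0.37 on the log2 scale). B2M, the light chain of class I molecules, had 595, 586, 577 and 579.8 CPM with DMSO and 1051, 1124, 1169 and 1213 CPM with YES1i (0.96, SE 0.04). No DMSO library reached a YES1i library. HLA-B, HLA-C and HLA-E had 0.91, 0.75 and 0.81; reads of these alike genes can be mis-assigned. The peptide loader TAPBP had 0.59. TAPBPL, a related editor, led the rises at 5 CPM or more (1.14, SE 0.13), with exons shared with VAMP1. Peptide transport split in the pair that forms the pump: TAP1 had 0.25 and TAP2 84.1, 78.0, 87.3 and 76.1 CPM with DMSO and 46.8, 44.4, 42.7 and 41.3 CPM with YES1i (-0.90, SE 0.05). CD274, which encodes PD-L1, fell from 26.4 ± 1.51 to 17.2 ± 1.05 CPM and the class II activator CIITA had -0.43.

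**Figure D4:**
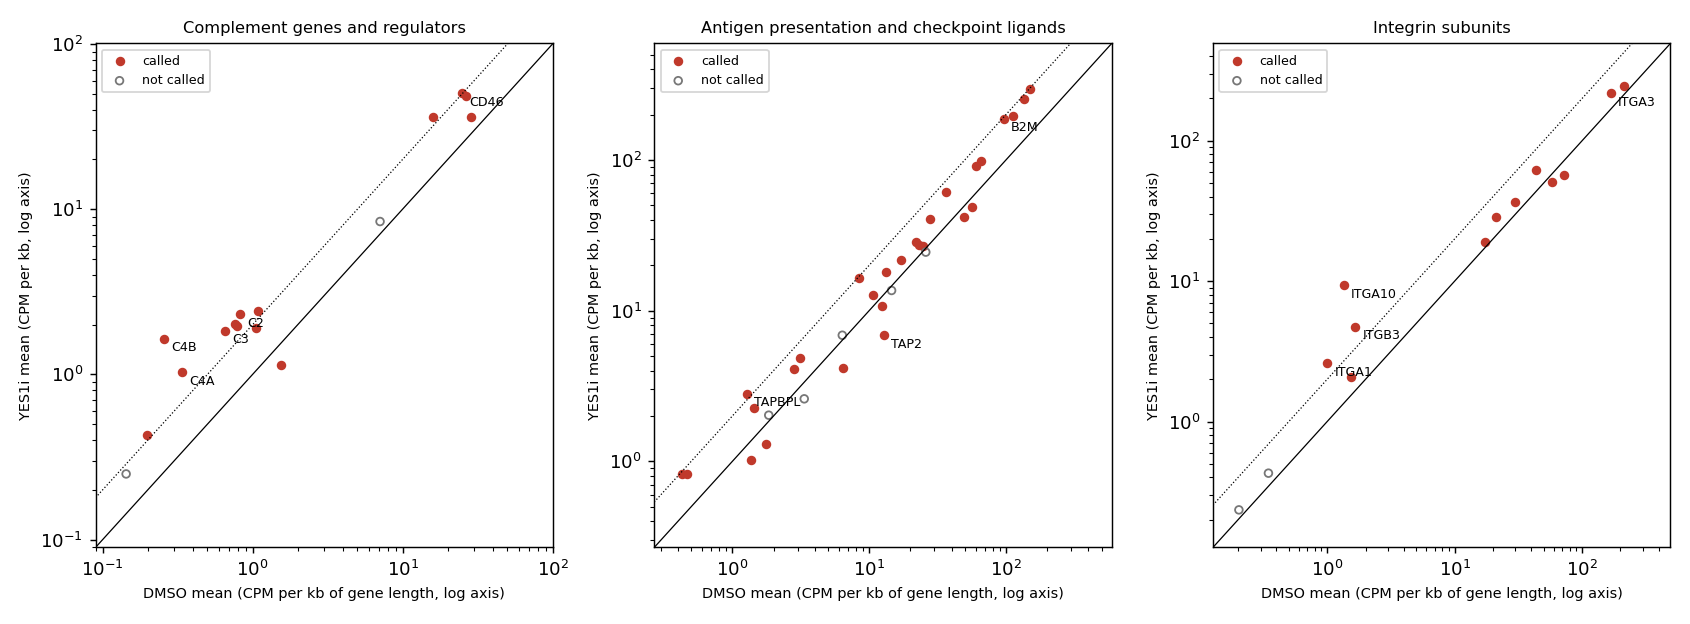
Mean level with YES1i (y axis) against DMSO (x axis), in CPM per kb of gene length on log axes, for complement genes, antigen presentation genes and integrins. The solid line marks equal levels and the dotted line a 2-fold rise; 10 complement genes rose at least 2-fold and ITGA10 is farthest from the line among integrins.

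Interferon-stimulated genes were closer to the background, since 20 of 46 tested members rose and 9 fell (median 0.14 on the log2 scale). GBP2, an interferon-induced GTPase, had 43.3, 40.3, 40.2 and 46.4 CPM with DMSO and 132, 137, 130.02 and 146 CPM with YES1i (1.68, SE 0.05), and the factor STAT2 had 62.0, 57.7, 57.9 and 61.8 CPM with DMSO and 142, 129, 132 and 123 CPM with YES1i (1.13, SE 0.05). The RNA sensor IFIH1 had 0.76. OAS3, which makes the activator of RNase L, fell from 51.8 ± 3.08 to 28.2 ± 2.41 CPM, and the factor IRF1 had -0.26.

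Among chemokines and interleukin-1 cytokines 9 of 19 tested members rose and 2 fell (median 0.30 on the log2 scale). IL24, a cytokine of the interleukin-10 family, had 3.18, 2.79, 2.92 and 2.99 CPM with DMSO and 15.6, 15.99, 14.2 and 15.6 CPM with YES1i (2.36, SE 0.11). IL1B and its antagonist IL1RN rose together from low levels, IL1B from 0.546 ± 0.396 to 4.14 ± 0.303 CPM and IL1RN from 0.745 ± 0.175 to 5.05 ± 0.724 CPM. IL7R, the receptor chain for interleukin-7, had 21.6, 20.4, 23.1 and 18.1 CPM with DMSO and 8.07, 9.23, 7.15 and 9.44 CPM with YES1i and fell (-1.30, SE 0.10). The chemokine receptor CXCR4 fell from 24.5 ± 1.502 to 12.02 ± 1.62 CPM, and IL32 rose from 26.3 ± 0.888 to 49.0 ± 3.10 CPM.

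IL11, an interleukin-6 family cytokine (chromosome 19, 55364389 to 55370463, minus strand), had the second largest fall of the genes named by size, with 77.0, 89.5, 83.4 and 84.5 CPM with DMSO and 11.7, 14.7, 16.2 and 13.3 CPM with YES1i. The lowest DMSO library was several times the highest YES1i library (-2.58, SE 0.07; 2.74e-20 as adjusted p in edgeR). The acute-phase genes SAA1 and SAA2, close copies of each other, had -1.49 and -1.74. OSMR, a receptor of the same cytokine family, rose by 0.38. In its list 13 of 33 tested members rose and 11 fell (median 0.04 on the log2 scale). Of NF-kB factors and feedback genes 9 of 28 tested members rose and 11 fell (median -0.05 on the log2 scale). In the fit of all 16 libraries 7 fell in each of these lists. ICAM1, an adhesion molecule for leukocytes, had 45.1, 40.8, 44.2 and 41.9 CPM with DMSO and 119, 105, 107 and 115 CPM with YES1i (1.37, SE 0.05), while VCAM1 fell from 6.57 ± 0.400 to 4.05 ± 0.538 CPM. In the TNF superfamily 15 of 29 tested members rose and 9 fell (median 0.14 on the log2 scale). TNFSF9, the ligand 4-1BBL, had 1.23 (SE 0.11) and NGFR, the neurotrophin receptor p75, had -0.89 (SE 0.07).

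Integrins, the receptors for matrix, mostly rose. Of 14 tested integrin subunits 10 rose and 2 fell (median 0.34). ITGA10, a collagen-binding alpha subunit (chromosome 1, 145891208 to 145910189), had 8.03, 7.81, 9.69 and 8.58 CPM with DMSO and 62.6, 62.3, 58.2 and 54.2 CPM with YES1i. The lowest YES1i value was several times the highest DMSO value (2.79, SE 0.08; 2.35e-22 as adjusted p in edgeR). ITGB3, partner of the vitronectin receptor, rose from 7.31 ± 1.05 to 20.9 ± 1.26 CPM and ITGA1, another collagen receptor, from 18.6 ± 2.95 to 48.5 ± 3.86 CPM. ITGAV and ITGB5 had 0.44 and 0.51, the abundant ITGA3 0.38 and ITGB1 0.20. ITGA6 and ITGB4, which form the laminin receptor of hemidesmosomes, were the 2 that fell, at -0.32 and -0.21. Per kb, ITGA3 stood at 169 and 219 CPM and ITGA10 at 1.35 and 9.39 CPM, so ITGA10 remained the lower after its rise.

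Focal adhesion adaptors and kinases were mostly lower, as 4 of 24 tested members rose and 16 fell (median -0.17 on the log2 scale), and 0 changed by 2-fold. FERMT1, kindlin-1, had 21.8, 20.6, 20.2 and 20.04 CPM with DMSO and 12.2, 11.2, 12.8 and 11.95 CPM with YES1i (-0.78, SE 0.08). Talin TLN1, the crosslinker ACTN4 and paxillin PXN had -0.34, -0.35 and -0.28. PTK2B, a relative of focal adhesion kinase, rose from 18.9 ± 1.22 to 25.3 ± 1.85 CPM. Of the caveolae genes 2 of 9 tested members rose and 6 fell (median -0.28 on the log2 scale), and 1 rose without DMSO replicate 1 or YES1i replicate 3. CAV1, the main coat protein, had 969.8, 947, 957 and 943 CPM with DMSO and 417, 458, 456 and 468 CPM with YES1i (-1.09, SE 0.04), and the cavins CAVIN1 and CAVIN2 had -0.65 and -0.78.

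Targets of YAP and TAZ had the lowest median of the lists, -0.60, with 20 of 25 lower and 4 higher. TEAD4, a DNA-binding partner of YAP, had 19.4, 19.7, 20.7 and 21.3 CPM with DMSO and 9.25, 8.49, 7.92 and 9.69 CPM with YES1i (-1.20, SE 0.09). AXL, a receptor kinase that was among the largest losses in CPM, had 1418, 1451, 1414 and 1418 CPM with DMSO and 724, 707, 772 and 702 CPM with YES1i (-0.97, SE 0.04). CRIM1, which tethers BMPs, fell from 513 ± 8.49 to 263 ± 9.03 CPM. In the actomyosin and SRF list 6 of 26 tested members rose and 13 fell (median -0.13 on the log2 scale). ACTB and FLNA were large losses in CPM, at -0.39 and -0.26, FHL2, a LIM adaptor, had -0.67, and FILIP1L, which binds filamin, rose from 14.96 ± 0.849 to 24.3 ± 2.66 CPM. TMSB4X, the actin-sequestering thymosin, gained many CPM (0.60, SE 0.05).

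Matrix genes moved in both directions. Among glycoproteins and crosslinkers 18 of 39 tested members rose and 13 fell (median 0.14 on the log2 scale). Fibronectin, FN1 (chromosome 2, 215360440 to 215436172, minus strand), had 639, 603, 667 and 652 CPM with DMSO and 2881, 2691, 2542 and 2526 CPM with YES1i (2.05, SE 0.04; 3.44e-24 as adjusted p in edgeR). Tenascin-C, TNC, had 70.1, 68.4, 70.8 and 67.5 CPM with DMSO and 20.2, 19.4, 22.9 and 20.9 CPM with YES1i (-1.73, SE 0.06), and thrombospondin THBS1 1913, 1814, 1853 and 1788 CPM with DMSO and 1011, 975, 1025 and 978 CPM with YES1i (-0.88, SE 0.04). In none of the 3 did the groups overlap. The basement membrane genes AGRN, HSPG2 and LAMB2 rose by 0.60, 0.54 and 0.78, whereas LAMB3 had -0.45 and the fibulin EFEMP1 fell from 166 ± 4.64 to 58.2 ± 4.20 CPM.

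Of 34 matrix proteases and inhibitors 15 rose and 5 fell, and 7 rose at least 2-fold against 0 lower. In the fit of all 16 libraries 3 fell. MMP17, a membrane-bound metalloproteinase, had 0.909, 2.11, 1.14 and 1.23 CPM with DMSO and 9.60, 10.0, 8.92 and 8.14 CPM with YES1i (2.78, SE 0.18). ADAMTS14, which trims procollagen, rose from 10.3 ± 1.04 to 43.0 ± 4.54 CPM and ADAM8 from 160.0 ± 10.5 to 375 ± 14.9 CPM. MMP14 had 0.52, and the inhibitors TIMP1, TIMP2 and TIMP3 0.97, 0.79 and 0.67. ADAM19 fell from 73.0 ± 2.39 to 46.9 ± 2.33 CPM.

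Among collagens 7 of 25 tested members rose and 10 fell (median -0.13 on the log2 scale). COL4A5, a basement membrane chain, had 17.3, 16.9, 17.5 and 16.8 CPM with DMSO and 40.9, 36.5, 35.6 and 36.9 CPM with YES1i (1.13, SE 0.07). The 3 chains of collagen VI were unequal: COL6A1 and COL6A2 had 0.96 and 0.99, and COL6A3 -0.67. In coagulation and plasminogen activation 8 of 23 tested members rose and 8 fell (median -0.03 on the log2 scale). PROS1, an anticoagulant cofactor, rose from 13.9 ± 0.868 to 34.7 ± 1.00 CPM, F3, tissue factor and also a YAP target, fell from 485 ± 16.8 to 272 ± 11.3 CPM, and the inhibitor of tissue factor TFPI rose by 0.58. The activator PLAU and the plasminogen-binding S100A10 had -0.52 and -0.74.

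Among keratins and cell junction genes 8 of 33 tested members rose and 19 fell (median -0.32 on the log2 scale). JUP, plakoglobin, had 84.3, 86.9, 79.5 and 91.7 CPM with DMSO and 173, 164, 168 and 172 CPM with YES1i (0.98, SE 0.04), and F11R and CLDN4 of tight junctions had 0.70 and 0.48. GJA1, connexin 43, fell from 10.4 ± 1.55 to 5.18 ± 1.22 CPM. The plakins PPL and EVPL and the desmosome gene PKP2 had -0.91, -0.81 and -0.88. Tight junction cingulin, CGN, at low counts, had -1.23. KRT18, a keratin of simple epithelia, had -0.61, with exons that overlap KRT8. Among EMT factors and cadherins 4 of 17 tested members rose and 5 fell (median 0.02 on the log2 scale). CDH4, R-cadherin, fell from 106 ± 3.88 to 49.9 ± 1.78 CPM, CD24 rose from 6.04 ± 0.452 to 9.35 ± 1.74 CPM, VIM had -0.18 and CD44 0.29.

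Growth factor signalling showed changes at single ligands and receptors. In the EGFR family 4 of 14 tested members rose and 5 fell (median -0.06 on the log2 scale). ERBB3, a receptor with an impaired kinase (chromosome 12, 56076799 to 56103505), had 6.92, 5.70, 7.71 and 6.97 CPM with DMSO and 18.4, 18.5, 16.3 and 17.1 CPM with YES1i (1.36, SE 0.10). Its ligand NRG1 had 72.5, 74.0, 77.6 and 81.4 CPM with DMSO and 32.2, 24.4, 28.9 and 29.2 CPM with YES1i (-1.41, SE 0.06). Receptor and ligand thus moved in opposite directions. EGFR had -0.35 and its ligand HBEGF -0.79. Of other receptor kinases and ligands 15 of 32 tested members rose and 9 fell (median 0.08 on the log2 scale). CSF1, the macrophage growth factor (chromosome 1, 109910242 to 109930992), had 294, 285, 296 and 306 CPM with DMSO and 972, 932, 931 and 913 CPM with YES1i (1.67, SE 0.04; 6.52e-24 as adjusted p in edgeR). PDGFRB had -0.99 (SE 0.08), the collagen receptor DDR1 0.88 and VEGFA 0.79. Among ephrin receptors and ephrins 4 of 16 tested members rose, 4 fell and 8 were not called (median -0.06 on the log2 scale). EFNA1, an ephrin ligand, rose from 5.42 ± 0.569 to 14.6 ± 1.04 CPM, while EPHA2, its receptor, fell from 511 ± 17.5 to 321 ± 17.1 CPM.

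Feedback genes of ERK had 13 higher and 3 lower of 20 (median 0.40). DUSP8, a phosphatase of stress kinases, had 2.47, 4.51, 2.27 and 2.65 CPM with DMSO and 11.4, 10.5, 12.9 and 10.6 CPM with YES1i (1.95, SE 0.16). The ERK phosphatase DUSP6 and the inhibitor SPRY1 had 0.46 and 0.63. DUSP1 had -0.40 (edgeR adjusted p = 0.000196), a call lost in the edgeR fit of all 16 libraries (adjusted p = 0.0523). In the AP-1 and immediate early list 16 of 30 tested members rose and 10 fell (median 0.23 on the log2 scale). NR4A2, an orphan receptor of early response, rose from 3.32 ± 0.171 to 10.4 ± 2.08 CPM, JUND from 90.4 ± 6.04 to 201 ± 25.3 CPM and BTG1, which restrains proliferation, from 61.9 ± 1.96 to 179.8 ± 3.14 CPM. KLF2 fell from 19.0 ± 3.15 to 8.92 ± 1.17 CPM and FOSL1 had -0.51. In the insulin-like growth factor axis 6 of 14 tested members rose and 7 fell (median 0.08 on the log2 scale). IGF2R, which clears IGF2 and sorts lysosomal enzymes, rose from 369 ± 9.12 to 708 ± 37.2 CPM, IGFBPL1 fell from 8.47 ± 1.20 to 4.27 ± 0.453 CPM, and IGFBP4 was among the largest losses in CPM (-0.49, SE 0.04).

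In TGF-beta and BMP signalling 25 of 50 tested members rose and 10 fell (median 0.18 on the log2 scale). KCP, a secreted regulator of BMPs (chromosome 7, 128862451 to 128910719), had the largest rise of the protein-coding genes named by size, with 0.454, 0.570, 0.643 and 0.616 CPM with DMSO and 16.2, 12.6, 12.4 and 9.54 CPM with YES1i (4.45, SE 0.20). Its exons overlap ATP6V1F on the other strand, so its level is uncertain. The latency proteins that hold TGF-beta in the matrix rose, LTBP3 from 54.3 ± 3.37 to 189 ± 13.8 CPM and LTBP1 from 42.3 ± 1.40 to 123 ± 1.69 CPM, as did TGFB1 (0.59). Activin and its antagonist both fell: FST had 57.7, 49.5, 59.8 and 54.3 CPM with DMSO and 17.9, 20.02, 21.9 and 19.8 CPM with YES1i (-1.47, SE 0.07), and INHBA -1.28. The response genes SKIL and ID1 and the factor SMAD3 had -0.72, -0.58 and -0.50.

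Among Wnt genes 15 of 32 tested members rose and 8 fell (median 0.10 on the log2 scale). LRP5, a co-receptor, had 385, 404, 379 and 411 CPM with DMSO and 811, 767, 818 and 783 CPM with YES1i (1.01, SE 0.04), and FZD2, a receptor, fell from 63.0 ± 2.55 to 46.3 ± 4.01 CPM. In Notch signalling 4 of 20 tested members rose and 5 fell (median 0.01 on the log2 scale). LFNG, which glycosylates the receptors, rose from 29.1 ± 0.917 to 44.6 ± 2.35 CPM, and HES1, a target, fell from 11.1 ± 1.65 to 4.81 ± 0.787 CPM. Without YES1i replicate 4, 3 Notch genes fell in place of 5, and 3 also fell in the fit of all 16 libraries. With upper quartile scaling 7 rose and 3 fell. Among guidance molecules 10 of 35 tested members rose and 9 fell (median 0.02 on the log2 scale). NTN4, a netrin of basement membranes, rose from 19.95 ± 0.763 to 51.4 ± 1.97 CPM and SEMA5A fell from 16.9 ± 0.703 to 8.42 ± 1.22 CPM.

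Clock and nuclear receptor genes rose in greater number than they fell. Of clock genes 11 of 23 tested members rose and 5 fell (median 0.12 on the log2 scale), or 3 fell with upper quartile scaling and in the fit of all 16 libraries. CRY1, a repressor of the clock, had 54.3, 52.4, 52.5 and 56.2 CPM with DMSO and 20.6, 22.4, 21.9 and 20.1 CPM with YES1i (-1.34, SE 0.06). BHLHE41, another repressor, rose from 5.80 ± 1.36 to 14.01 ± 0.788 CPM, while ARNTL2 had -0.80 and DBP 0.84. Of nuclear receptors 15 of 22 tested members rose and 2 fell (median 0.37 on the log2 scale). NR1H3, the oxysterol receptor LXR-alpha, rose from 15.3 ± 1.21 to 29.4 ± 0.996 CPM, and VDR, the vitamin D receptor, fell from 16.9 ± 1.58 to 8.68 ± 0.458 CPM. The thyroid hormone receptor THRB had 1.11, ESR2, at low counts, 1.64, ESRRA 0.65 and RXRA 0.24. The glucocorticoid receptor NR3C1 had 0.00 (edgeR adjusted p = 0.943).

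The largest changes outside the pathway lists were as follows. ASB2, a ubiquitin ligase adaptor, had 1.36, 1.14, 1.29 and 1.56 CPM with DMSO and 11.5, 12.9, 13.1 and 13.1 CPM with YES1i (3.23, SE 0.14). SHC2, a phosphotyrosine adaptor, had 1.41, 1.37, 1.83 and 1.90 CPM with DMSO and 11.4, 11.03, 13.4 and 13.1 CPM with YES1i (2.90, SE 0.14). C6orf223, whose function is not described here, had 3.39 (SE 0.12), with an overlapping gene on the other strand. MARCH4, a membrane-bound ubiquitin ligase (chromosome 2, 216257865 to 216372027, minus strand), had the largest fall of the genes named by size, which need a mean of 5 CPM, with 19.2, 17.2, 18.1 and 16.8 CPM with DMSO and 1.65, 3.53, 3.21 and 3.16 CPM with YES1i (-2.61, SE 0.14).

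PPME1, the methylesterase of protein phosphatase 2A, was the most abundant of the large falls, with 266, 261, 251 and 255 CPM with DMSO and 73.1, 82.9, 82.7 and 81.6 CPM with YES1i (-1.69, SE 0.04; 1.36e-22 as adjusted p in edgeR). The metastasis suppressor KISS1 had 21.7, 23.6, 23.6 and 24.9 CPM with DMSO and 6.48, 4.90, 7.77 and 7.43 CPM with YES1i (-1.80, SE 0.10). No YES1i library reached a DMSO library in either. WDR62, a spindle pole protein, had -1.84, the repressor ZNF488 -2.06, the platelet receptor PEAR1 -1.70, RTKN2 -1.68, RAB15 -1.66 and TP73 -1.64. FAM72B had -1.76, with near-identical copies that may share its reads.

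Among lincRNA and antisense genes at 5 CPM or more, the largest falls were 2 genes on chromosome 10, AC245041.2 at -2.18 (SE 0.10) and AC245041.1 at -2.04 (SE 0.11). AC245041.2 runs from 47908064 to 47991850 and AC245041.1, on the same strand and within that span, from 47970043 to 47973496. MIR137HG, the host of a microRNA, fell from 9.01 ± 0.834 to 2.63 ± 0.381 CPM, and SFTA1P had -1.75. The largest rises were AL590004.3, from 3.02 ± 0.434 to 13.5 ± 1.03 CPM, LINC01443 at 1.86, RUSC1-AS1 at 1.70 and AC089983.1 at 1.36. RUSC1-AS1 shares 31.0% of its exonic length with FDPS, so reads of the 2 cannot be told apart without strand. For all 8, the 4 values of a group did not overlap the other group.

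Of the markers of other cell types, PECAM1, an endothelial adhesion molecule also found on other cells, rose from 3.34 ± 1.12 to 8.78 ± 0.601 CPM. CSF1R, the receptor for CSF1, rose from 8.96 ± 0.890 to 11.6 ± 0.594 CPM. PDGFRB, in the same list as PECAM1, fell from 26.6 ± 1.54 to 13.4 ± 1.34 CPM. The other leukocyte marker that could be tested had -0.40 and was not called. Endothelial CDH5, TEK and CLDN5 and the leukocyte markers PTPRC and CD3E were too low to be tested.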

How the data were processed

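The data are poly(A) RNA-seq counts of 4 DMSO and 4 YES1i libraries of MDA-MB-231, taken from 1 table of 16 libraries. The authors deposited raw counts per gene for 58735 genes; reads were aligned with HISAT2 2.0.5 and counted with featureCounts 1.5.0-p3 on hg38, per the submitters' processing notes. The protocol allows for directional and non-directional libraries, and the strand setting is not given in the sources used here, so overlapping genes cannot be told apart: 14 named genes share exons with another gene that has at least 10% of their own count (among them PACSIN2, KCP, TAPBPL, MRPL34, BHLHE41, NR1H3, KRT18, C6orf223, FAM72B, PPME1, TP73, RUSC1-AS1 and MIR137HG), and so do some of the others, among them ITGA1, OSMR, IRF1, CIITA, TCP1, DBP and ESRRA. Reads of close copies or processed pseudogenes of HLA genes, C4A, FTL, FTH1, EEF1A1, ACTB and TMSB4X may also be misplaced.

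Genes were kept by filterByExpr on these 8 libraries, scaled by TMM and tested with edgeR 4.0.16 (quasi-likelihood test, robust, no replicate term, R 4.3.3), with Benjamini-Hochberg adjustment over all 15577 tested genes and a threshold of 0.05. SE is the size of the log2 fold change over the root of F. Replicate numbers were not taken to pair the libraries, as the labels state no pairing. On simulated counts with known changes the test recovered 78% of genes changed 1.25-fold and 98% of those changed 1.5-fold, with 5.56% false calls among its calls, over 15364 genes. Only 50 genes were changed for each fold, all drawn from genes at 5 CPM or more. In the real data 60.0% of the tested genes were called, many at lower levels, so these shares do not carry over to them. Alternatives were other scalings, DESeq2 1.42.0, limma-voom (limma 3.58.1), other filters, all 16 libraries, a replicate block and leaving out each library. Total counts of 16104898 to 21078169 limit precision for genes near the 0-count limit.

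The members and lists were chosen with earlier results of these data known. Genes were named by rule: YES1; for each list the called member with the largest rise and fall at a mean of 5 CPM or more without overlap; the 12 largest rises and falls and the 6 largest gains and losses in CPM among protein-coding genes outside the left-out lists; and 4 noncoding rises and falls. The other genes were chosen after their values were seen. Promoters are RefSeq windows of GRCh38.p14 matched by symbol. Further motifs were searched on both strands. TGCNCNC, for MTF1, was in 50.0% of metallothionein and zinc transporter promoters and 48.4% of all. TGACGTCA, for CREB and ATF, was in 1 of 35 promoters of endoplasmic reticulum chaperones and folding genes (2.86%) and 1.77% of all. CACGTG, the E-box, was in 15.1% of promoters of nucleolar factors and 6.49% of all. Some members are counted in their lists and not reported here by name.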

Additional observations from a re-analysis of the deposited data

Results flagged for a closer look

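Of 648 groups of 4 libraries looked at, for 318 genes and 6 measures of the libraries in each of 2 conditions, 28 held a value set apart from the other 3 of its group, by a gap beyond Dixon's 95% critical value. Chance alone sets apart about 5% of such groups, 1 in 20, and these 28 are no larger a share. In some the single library was the highest. DUSP8 stood at 4.51 CPM in DMSO replicate 2 and at 2.27 to 2.65 CPM in the rest of its group. In YES1i replicate 3, FZD2 had 52.3 CPM beside 44.1 to 44.5 CPM. YES1i replicate 1 had 10.3 CPM of SEMA5A, against 7.72 to 7.93 CPM. EIF4EBP1 stood at 62.3 CPM in DMSO replicate 2 and at 57.6 to 58.4 CPM in the rest of its group. In DMSO replicate 1, HSPA4L had 69.5 CPM beside 62.6 to 63.7 CPM. YES1i replicate 2 had 6.88 CPM of BCL2, against 5.52 to 5.72 CPM. AXL stood at 1451 CPM in DMSO replicate 2 and at 1414 to 1418 CPM in the rest of its group. In DMSO replicate 2, PPL had 86.6 CPM beside 79.3 to 80.5 CPM. DMSO replicate 4 had 1.14 CPM of IL1B, against 0.303 to 0.399 CPM. IL1B stood at 4.60 CPM in YES1i replicate 1 and at 3.97 to 4.03 CPM in the rest of its group. In YES1i replicate 4, C4A had 10.6 CPM beside 6.07 to 6.82 CPM. YES1i replicate 3 had 11.7 CPM of C1R, against 10.998 to 11.03 CPM. TIPARP stood at 48.9 CPM in DMSO replicate 1 and at 43.7 to 44.4 CPM in the rest of its group. In YES1i replicate 4, DNAJB9 had 29.6 CPM beside 26.0 to 26.6 CPM. DMSO replicate 1 had 60.0 CPM of MDM2, against 54.5 to 55.3 CPM. SLC7A5 stood at 450.2 CPM in YES1i replicate 3 and at 419 to 423 CPM in the rest of its group. In DMSO replicate 1, VIM had 871 CPM beside 857 to 859 CPM.

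In the others the single library was the lowest. BCL2 stood at 11.5 CPM in DMSO replicate 4 and at 12.3 to 12.4 CPM in the rest of its group. In YES1i replicate 2, SLC43A1 had 21.1 CPM beside 24.9 to 25.3 CPM. DMSO replicate 1 had 30.5 CPM of MRPL34, against 31.4 to 31.5 CPM. ASB2 stood at 11.5 CPM in YES1i replicate 1 and at 12.9 to 13.1 CPM in the rest of its group. In YES1i replicate 1, PPME1 had 73.1 CPM beside 81.6 to 82.9 CPM. DMSO replicate 3 had 104 CPM of TAP1, against 112 to 113 CPM. GCLM stood at 81.3 CPM in DMSO replicate 1 and at 83.8 to 84.2 CPM in the rest of its group. In DMSO replicate 1, SOD2 had 60.7 CPM beside 64.3 to 65.0 CPM. DMSO replicate 3 had 35.0 CPM of HERPUD1, against 39.7 to 40.4 CPM. PSME1 stood at 138 CPM in YES1i replicate 1 and at 153 to 154 CPM in the rest of its group. In YES1i replicate 3, VIM had 728 CPM beside 766 to 773 CPM. Each of these genes was on the same side of the test's threshold without the library concerned.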

How the results depend on the processing

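The count of genes called higher (4568) ran from 3798 at an adjusted p under 0.01 to 5091 with upper quartile scaling, and that of genes called lower (4780) from 3891 in the fit of all 16 libraries to 4801 with limma-voom. With a change of at least 2-fold also required, 900 rose and 655 fell. Leaving out 1 library at a time gave 4301 to 4574 higher and 4500 to 4601 lower. With YES1i replicates 3 and 4 only, chosen after seeing the data, 4535 rose and 4391 fell. Same-numbered libraries had correlations of -0.148 to 0.0206, none of the 4 pairs over 0.1, so the numbers were not taken to pair them, and the fit with the replicate block called 4454 higher and 4656 lower. Over 318 genes and 18 alternatives, 5704 of 5724 calls stayed on their side of the threshold, 16 were lost, 4 were gained and 0 changed sign. The 6 genes concerned were DUSP1, BCL2L11, FYN, LYN, PTPN11 and PTPRA, and the cause was not tested. Of 2016 counts of list members, 49 moved by over 1.5 times. In the fit of all 16 libraries fewer members fell among NF-kB genes (7), IL6 family genes (7), NRF2 genes (4), matrix proteases (3), clock genes (3) and metallothioneins and zinc transporters (2). Another scaling moved a list median by at most 0.0462, and 9 of 55 medians changed sign under some alternative, all of size 0.0596 or less. The gain in the share of counts from mitochondrial rRNA, 0.686 percentage points, ran from 0.667 to 0.701 without single libraries. Depth limits genes near 0.186 CPM, the level that a count of 0 allows in the shallowest library.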

Other observations

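Of 1072 tested genes that the deposited table marks as transcription factors, 325 rose (30.3%) and 290 fell (27.1%), close to the shares of all genes, 29.3% and 30.7%. By the table's own family names, nuclear receptors of the RXR-like and THR-like families rose in 5 of 7 and 8 of 15 cases, with 1 fall in each. Of 45 bZIP factors, the family of ATF4, JUN and NRF2, 22 rose and 11 fell. Interferon regulatory factors rose in 5 of 7 cases and fell in 1. Of 59 homeobox factors 8 rose and 21 fell (35.6% lower, near the share of all genes), and of 12 THAP zinc finger factors 1 rose and 5 fell (41.7% lower). Larger shares fell in some other families, among them MYB (11 of 21), HMG (15 of 31), E2F (7 of 10) and RFX factors (3 of 5).

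The largest fold changes lay in genes too low to be named by the rule, and these were chosen after their values were seen. SLC2A5, a fructose transporter, was at 0.0505, 0.0570, 0.148 and 0 CPM with DMSO and at 6.25, 4.96, 4.75 and 5.62 CPM with YES1i. A2M, a secreted protease inhibitor, was at 0.0505 to 0.190 CPM with DMSO and 5.07 to 5.42 CPM with YES1i. The DMSO values of SLC2A5 are at or under the level that a count of 0 allows, so the size of its fold is not given.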
